A study of Mus musculus with 8 samples.

Results

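Genes of the spliceosome and of the serine/arginine-rich (SR) splicing proteins were followed in the mouse sciatic nerve at postnatal day 6, between animals with and without Cre-driven loss of Cdk7 in Schwann cells, the glia that ensheathe axons of peripheral nerves. The members were taken by a symbol rule, which uses no measured value but was chosen with earlier results of these data known. It took every row of the count table whose mouse symbol starts with Snrp, Sf3a, Sf3b, Prpf, Srsf or Lsm. It left out 2 pseudogene rows marked -ps and unnamed models. This gave 61 of the 55487 genes in the table, and 60 of them passed the filter on low counts, as did 15056 genes in all. The prefix also caught 3 symbols that do not stand for a splicing protein. Lsmem1 and Lsmem2 are named for a leucine-rich membrane protein, but the Lsmem2 row is annotated as a long noncoding RNA (lincRNA). Snrpert is annotated as a processed pseudogene. All 3 are kept in all counts and described apart.

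Polyadenylated RNA was sequenced from 4 control (Ctrl) and 4 knockout (CNP-Cdk7cKO) libraries. Ctrl animals had the genotype CNP+/+ Cdk7lox/lox, and CNP-Cdk7cKO animals CNPcre/+ Cdk7lox/lox, so both groups carried 2 floxed Cdk7 alleles and the knockout also lacked 1 intact Cnp allele. Cre was expressed from the Cnp locus, a gene of myelinating glia, whereas RNA came from the whole nerve with its fibroblasts, vessels, macrophages and perineurium. The labels do not state whether each library was made from 1 animal or from pooled nerves, and p-values therefore measure the spread between these libraries. In such bulk tissue a smaller number of Schwann cells and less RNA per Schwann cell cannot be told apart.

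Introns are removed by the spliceosome, which is built anew on each intron from small nuclear ribonucleoproteins (snRNPs), particles of a short RNA and its proteins. U1 marks the 5′ splice site and U2 the branch site; the U4/U6.U5 tri-snRNP then joins, U4 leaves, and U2, U5 and U6 form the catalytic core. U1, U2, U4 and U5 each carry a ring of Sm proteins, U6 carries a ring of the related Lsm proteins, and SR proteins bind exons and help U1 and U2 to choose their sites. Every cell of the nerve uses this machinery.

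Library totals lay between 16897242 and 21527891 estimated counts, and levels are given as CPM, a gene's count scaled to its library's size after the trimmed mean of M values correction (TMM). Cdk7 measured 20.6 to 22.2 CPM in the Ctrl libraries and 9.62 to 12.7 CPM in the CNP-Cdk7cKO libraries, and Cnp 2981 to 3312 and 1314 to 1454 CPM, so every library matched its label. Summed Schwann cell markers (10 genes, none at 0) were 132650 to 148813 in Ctrl and 100959 to 110719 CPM in CNP-Cdk7cKO, where 6 of the 10 were called lower and 0 higher. Sex and muscle tissue also differed between the groups, although neither separated them fully. Xist, expressed from the inactive X chromosome of females, was at 305 CPM in Ctrl 1 and 281 to 331 CPM in the knockout libraries, against 0 to 0.10 CPM in Ctrl 2, 3 and 4. Of 20 skeletal muscle markers 19 were called lower, and their summed level was 623 to 6079 in Ctrl and 121 to 676 CPM in CNP-Cdk7cKO. Macrophage markers (9 genes; 4 called higher, 0 lower) summed to 357 to 446 and 427 to 507 CPM, which overlapped. Fibroblast and perineurium markers (9 genes; 2 called higher, 1 lower) summed to 29583 to 33594 CPM in the controls and to 34417 to 38795 CPM in the knockout libraries, with no overlap. Of 6 endothelial, 5 erythroid, 3 adipocyte and 3 neuronal markers tested, edgeR called 0, with 1 endothelial gene at an unadjusted p under 0.05, which DESeq2 and limma-voom called lower (Kdr). Their part in the results below was not tested, beyond the fits with Xist or with muscle markers as a covariate.

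Most splicing genes differed little between the groups, and most that passed the test rose by a small amount, with the largest rise in the U2 protein gene Snrpa1. Of the 60 tested members 5 were called higher in CNP-Cdk7cKO (8.33%) and 1 lower (1.67%), against 5.07% and 6.60% of all 15056 tested genes. A gene is called where its p from edgeR's quasi-likelihood test, adjusted by Benjamini and Hochberg's method over all tested genes, is under 0.05. The rises were in Snrpa1, Prpf3, Sf3b3, Lsm7 and Prpf8, and the fall in Lsmem2. The median log2 fold change (CNP-Cdk7cKO over Ctrl) of the members was 0.05, against 0.00 over all tested genes, and the median of its absolute size was 0.10 against 0.12. Without CNP-Cdk7cKO 4 the members' median was 0.02. A log2 difference over 0.25 in either direction was found in 5 of the 60 members and in 24.0% of all tested genes. The median standard error was 0.064 for the members and 0.089 for all tested genes, so these sets also differed in noise. Every CNP-Cdk7cKO library lay above all 4 Ctrl libraries for 11 members (18.3%; 9.34% of all genes) and below them for 3 members (9.51% of all genes). Before the TMM correction, the members together took 0.383% to 0.392% of the counts in Ctrl libraries and 0.397% to 0.420% in CNP-Cdk7cKO libraries. These shares also move with the rest of each library, unlike the CPM used elsewhere. They were not tested, and the gap between the groups cannot be read as a rise in CPM.

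**Figure D1:**
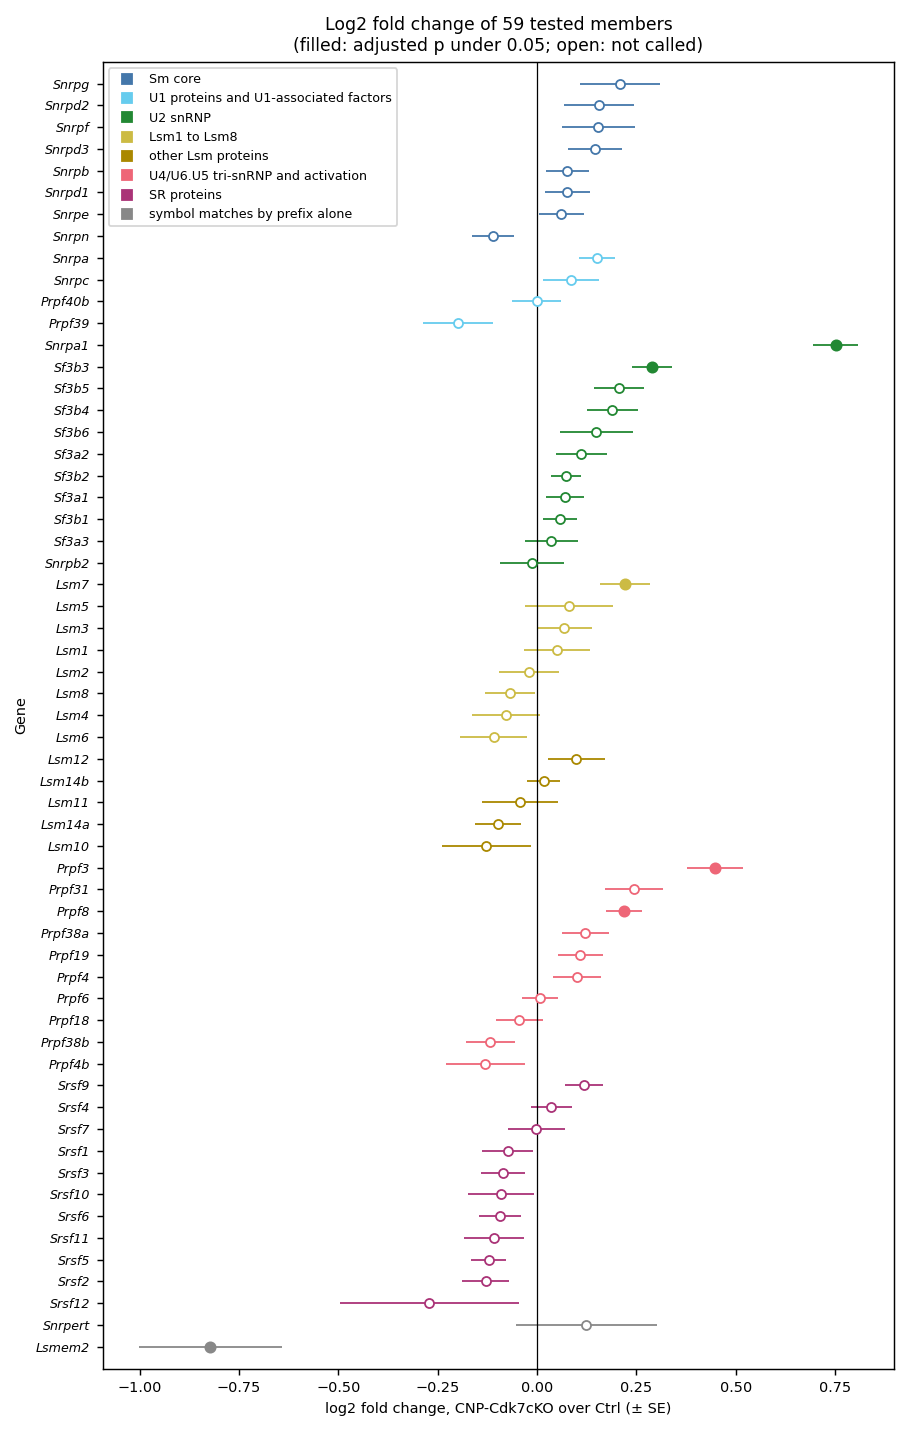
Log2 fold change (CNP-Cdk7cKO over Ctrl, x axis) with its standard error for 59 of the 60 tested members (y axis), coloured by subcomplex; filled points had an adjusted p under 0.05 in edgeR's quasi-likelihood test. Snrpa1 stands at 0.75 and Lsmem2 at -0.82, while the 11 SR protein genes lie between -0.27 and 0.12.

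Snrpa1 had the smallest p-value of all members and the largest difference among those that encode a splicing protein. It encodes the U2 A′ protein, a leucine-rich repeat protein that binds a stem-loop of U2 RNA together with the B″ protein of U2, the product of Snrpb2. The gene lies on chromosome 7 from 66059003 to 66074587 on the plus strand (GRCm38). It stood, in CPM, at 21.1, 22.9, 23.9 and 22.1 in Ctrl 1 to 4 and at 36.4, 37.3, 37.5 and 40.5 in CNP-Cdk7cKO 1 to 4. The groups did not overlap, and the lowest knockout library stood well above the highest control. Its mean rose 1.68-fold, from 22.5 ± 1.21 to 37.9 ± 1.81 CPM (SD, n = 4). The log2 fold change was 0.75 ± 0.06 (SE), with an adjusted p of 4.95e-05 in edgeR's quasi-likelihood test. By p-value Snrpa1 ranked 14 among all 15056 genes. Ctrl 1, the female control, was the lowest of the 8 libraries. With Xist as a covariate the log2 fold change was 0.85 (edgeR adjusted p = 0.00418), and among female libraries alone, where Ctrl 1 is the single control and takes its spread from the knockout libraries, it was 0.85 (edgeR adjusted p = 0.0186). With the muscle markers as a covariate it was 0.75 (edgeR adjusted p = 0.0082).

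The rise of Snrpa1 was not shared by its binding partner. Snrpb2 stood, in CPM, at 26.5, 23.3, 27.7 and 28.3 in Ctrl 1 to 4 and at 24.5, 23.7, 28.1 and 28.6 in CNP-Cdk7cKO 1 to 4, with overlapping groups and means of 26.4 ± 2.24 and 26.2 ± 2.45 CPM. Its log2 fold change was -0.01 ± 0.08 (edgeR adjusted p = 0.945). The log2 ratio of Snrpa1 to Snrpb2 CPM went from a mean of -0.23 ± 0.15 in Ctrl to 0.54 ± 0.10 in CNP-Cdk7cKO, a difference of 0.77 (two-sided exact permutation p = 0.0286, which is the lowest value possible in this design, and 0.0381 after Benjamini-Hochberg adjustment over 4 ratios chosen after the values were seen). The ratio of Snrpa1 to Sf3b3, described next among the U2 genes, differed by 0.46 with the same p. Per kb of merged exons, Snrpa1 went from 7.09 to 12.0 CPM per kb, while Snrpb2 stood at 9.25 and 9.18 CPM per kb. Snrpa1 thus passed from below its partner to above it on this length-scaled level. Its row held whole counts in all 8 libraries. The only gene that shares exon bases with it on its strand, Gm45213 (148 bases), had no counts.

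Genes beside Snrpa1 did not rise with it. Within 50 kb, Selenos, a selenoprotein gene of the endoplasmic reticulum, had a mean of 64.6 CPM over Ctrl and 64.3 CPM over CNP-Cdk7cKO, and Chsy1, a chondroitin synthase gene, 46.4 and 48.3 CPM, and neither was called. The upstream Pcsk6, a proprotein convertase gene, had means of 23.9 and 13.5 CPM and was called lower (log2 fold change -0.82 ± 0.10, edgeR adjusted p = 0.000869). These were the tested neighbours in that window, and they are named here by position.

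**Figure D2:**
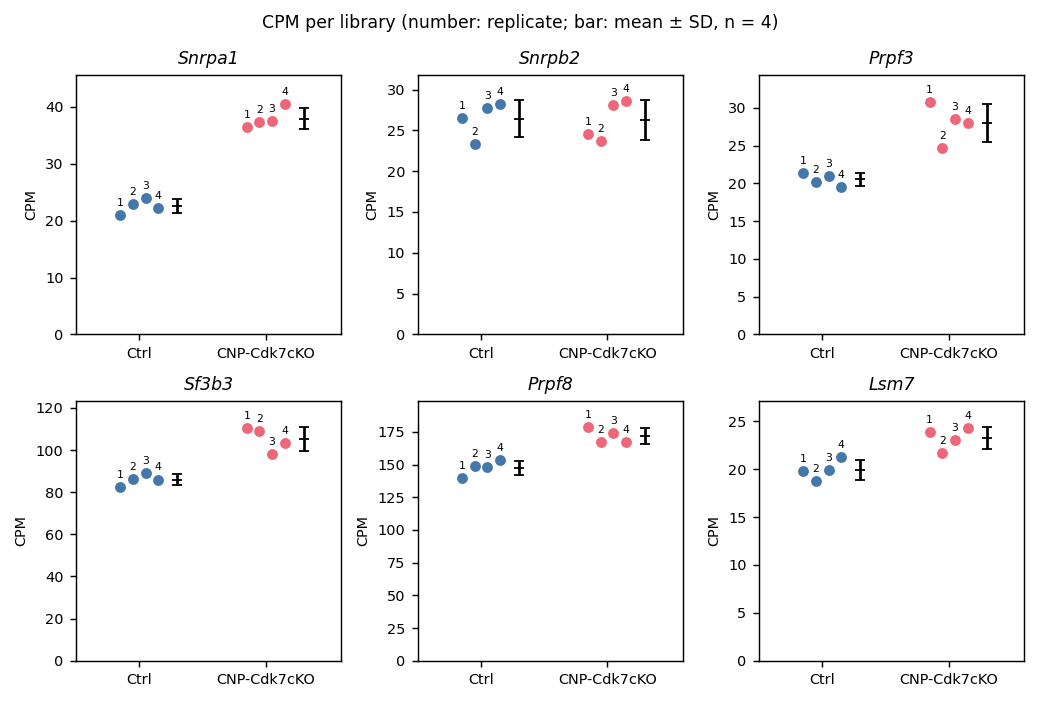
CPM (y axis, from 0) of the 5 splicing genes called higher and of Snrpb2 in each library, numbered by replicate, with the mean ± SD (n = 4) of each group beside the points. Snrpa1 lies at 21.1 to 23.9 CPM in Ctrl and at 36.4 to 40.5 CPM in CNP-Cdk7cKO, and Snrpb2 overlaps between groups.

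In the SF3a and SF3b complexes, which clamp U2 onto the branch site, 1 of 9 genes rose and 0 fell (all tested genes: 5.07% and 6.60%). Sf3b3, a large scaffold subunit of SF3b (chromosome 8 from 110810239 to 110846787, minus strand), stood, in CPM, at 82.4, 86.2, 89.3 and 86.0 in Ctrl 1 to 4 and at 110.3, 108.9, 98.1 and 103.3 in CNP-Cdk7cKO 1 to 4. All knockout libraries lay above all controls. The means were 86.0 ± 2.79 and 105.1 ± 5.60 CPM, a log2 fold change of 0.29 ± 0.05 (edgeR adjusted p = 0.00425). With Xist as a covariate the change was 0.35 and did not pass (edgeR adjusted p = 0.0725), nor did it with the muscle markers (0.38, edgeR adjusted p = 0.0544). Sf3b3 shares 188 exon bases with Cog4 on the other strand, which measured 54.2 and 62.8 CPM (log2 fold change 0.21, edgeR adjusted p = 0.0541). Whether counting used strand is not given in the sources used here.

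The other SF3 genes had small positive differences that did not pass. Sf3b1, whose product holds the branch site duplex, measured 147 to 151 in Ctrl and 149 to 164 CPM in CNP-Cdk7cKO. The knockout libraries stood above all controls also for Sf3b2 (181 to 189 against 189.2 to 197 CPM), Sf3b4 (65.6 to 77.4 against 77.7 to 90.3 CPM) and Sf3b5 (31.6 to 34.4 against 35.0 to 42.0 CPM), none of which was called (edgeR adjusted p = 0.251, 0.0854 and 0.0572). Sf3b5 was called without CNP-Cdk7cKO 1. For Sf3b2 and Sf3b4 the gap between the groups was narrower than the spread within either. Sf3b6, a small subunit next to the branch adenosine, and the genes Sf3a1, Sf3a2 and Sf3a3 had overlapping groups, with log2 fold changes of 0.15, 0.07, 0.11 and 0.04. Over the 11 U2 genes the median log2 fold change was 0.11, with 10 positive and 1 negative value. Without CNP-Cdk7cKO 4 it was 0.07, with 9 positive and 2 negative values.

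Among genes of the U4/U6.U5 tri-snRNP and of spliceosome activation 2 of 10 rose and 0 fell (all tested genes: 5.07% and 6.60%). Prpf3, a U4/U6 protein that holds the paired U4 and U6 RNAs (chromosome 3 from 95830124 to 95855885, minus strand), stood, in CPM, at 21.4, 20.2, 21.0 and 19.5 in Ctrl 1 to 4 and at 30.7, 24.7, 28.5 and 28.0 in CNP-Cdk7cKO 1 to 4. The groups did not overlap, although CNP-Cdk7cKO 2 stood apart from the other knockout libraries on the low side. The means were 20.5 ± 0.85 and 28.0 ± 2.51 CPM, a log2 fold change of 0.45 ± 0.07 (edgeR adjusted p = 0.00282). Its U4/U6 partner Prpf4 measured 21.0 to 22.6 in the Ctrl libraries and 22.4 to 25.2 CPM in CNP-Cdk7cKO and was not called (log2 fold change 0.10 ± 0.06, edgeR adjusted p = 0.323). The log2 ratio of Prpf3 to Prpf4 CPM differed between the groups by 0.34 (two-sided exact permutation p = 0.0286, 0.0381 adjusted over the 4 ratios). These ratios were chosen after the values were seen, when Prpf3 already separated the groups, so this p adds no separate evidence. The ratio of Prpf3 to Prpf31 differed by 0.20 (two-sided exact permutation p = 0.171, also after adjustment).

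Prpf8, which encodes the largest protein of the catalytic core and belongs to U5 (chromosome 11 from 75486816 to 75509449, plus strand), measured 140.0, 148.7, 148.1 and 153.2 CPM in Ctrl 1 to 4. In CNP-Cdk7cKO 1 to 4 it measured 178.7, 167.0, 174.5 and 166.9 CPM, above every control. The means were 147.5 ± 5.51 and 171.8 ± 5.81 CPM, a log2 fold change of 0.22 ± 0.04 (edgeR adjusted p = 0.0103). With Xist as a covariate the changes of Prpf3 and Prpf8 were 0.38 and 0.30 and did not pass (edgeR adjusted p = 0.154 and 0.0694). In the fit with muscle markers they were 0.31 and 0.28 (edgeR adjusted p = 0.298 and 0.12).

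Prpf31, which bridges U4/U6 to U5, stood, in CPM, at 31.9, 30.4, 36.8 and 35.5 in Ctrl 1 to 4 and at 37.9, 38.2, 39.6 and 43.9 in CNP-Cdk7cKO 1 to 4. The groups did not overlap but the test did not pass (log2 fold change 0.24 ± 0.07, edgeR adjusted p = 0.0538), although DESeq2 called it higher, as did edgeR without Ctrl 3. Prpf6, a further bridge between U5 and U4/U6, measured 57.4 to 62.7 and 58.9 to 62.4 CPM, which overlapped fully. The second-step factor gene Prpf18, the ubiquitin ligase gene Prpf19, the B complex genes Prpf38a and Prpf38b and the kinase gene Prpf4b were not called, with log2 fold changes between -0.13 and 0.12; without Ctrl 4, Prpf19 was called higher. The 10 genes had a median of 0.10.

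Among Lsm proteins, Lsm2 to Lsm8 form the ring on U6 in the nucleus, and Lsm1 to Lsm7 serve mRNA decay in the cytoplasm. Of these 8 genes 1 rose and 0 fell (all tested genes: 5.07% and 6.60%). Lsm7, a subunit of both rings (chromosome 10 from 80852821 to 80855209, minus strand), stood, in CPM, at 19.8, 18.7, 19.9 and 21.3 in Ctrl 1 to 4 and at 23.9, 21.7, 23.0 and 24.3 in CNP-Cdk7cKO 1 to 4. The highest control and the lowest knockout library nearly met. The means were 19.9 ± 1.04 and 23.2 ± 1.15 CPM, a log2 fold change of 0.22 ± 0.06 (edgeR adjusted p = 0.0425). This call was lost in 11 of 18 alternatives, among them DESeq2 (adjusted p = 0.0697), the fit with Xist (edgeR adjusted p = 0.336) and the fits without Ctrl 1, 2 or 3 or without CNP-Cdk7cKO 1, 3 or 4. Its row also held non-whole estimates in 5 libraries, as occurs where reads are shared with another gene. The ring-specific genes Lsm1 (14.0 to 16.7 against 14.2 to 17.1 CPM) and Lsm8 (24.3 to 25.5 against 21.5 to 26.0 CPM) overlapped between groups, and the 8 genes had a median log2 fold change of 0.02.

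The 250 bases before the transcription start are shown for the 5 genes that rose and for Snrpb2, the partner of Snrpa1 that was not called, so that the promoters of genes moving alike can be compared with each other. They are RefSeq sequences of GRCm38.p6, 5′ to 3′ on the strand of the gene, with words of 6 motifs in capitals on either strand: the GC box GGGCGG, the CCAAT box CCAAT, the ETS core CCGGAA, the E-box CACGTG, the TATA box TATAAA and the CRE core TGACG. Adjacent or overlapping words run together, and none of the 6 words contains another. RefSeq places the start of Snrpa1 1333 bases downstream of its outermost GENCODE start, so its window lies inside the GENCODE gene. The other RefSeq starts lie within 39 bases of the outermost GENCODE start of their gene.
Snrpa1, chr7:66060086-66060335, plus strand: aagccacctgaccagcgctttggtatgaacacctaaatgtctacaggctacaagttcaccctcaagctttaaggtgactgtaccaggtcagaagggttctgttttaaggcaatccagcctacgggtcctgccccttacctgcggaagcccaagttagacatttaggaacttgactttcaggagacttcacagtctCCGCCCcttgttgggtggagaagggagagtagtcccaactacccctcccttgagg
Snrpb2, chr2:143062819-143063068, plus strand: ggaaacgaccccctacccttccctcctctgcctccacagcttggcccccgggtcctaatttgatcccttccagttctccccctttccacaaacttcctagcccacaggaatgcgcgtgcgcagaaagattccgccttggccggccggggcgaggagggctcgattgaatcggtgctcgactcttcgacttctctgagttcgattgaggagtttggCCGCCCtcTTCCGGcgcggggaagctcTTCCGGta
Sf3b3, chr8:110846804-110847053, minus strand: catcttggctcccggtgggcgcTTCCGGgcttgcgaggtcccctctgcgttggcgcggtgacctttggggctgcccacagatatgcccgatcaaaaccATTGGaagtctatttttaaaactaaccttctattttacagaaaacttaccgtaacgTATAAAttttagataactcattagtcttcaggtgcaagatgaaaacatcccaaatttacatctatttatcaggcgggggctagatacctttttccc
Prpf3, chr3:95855886-95856135, minus strand: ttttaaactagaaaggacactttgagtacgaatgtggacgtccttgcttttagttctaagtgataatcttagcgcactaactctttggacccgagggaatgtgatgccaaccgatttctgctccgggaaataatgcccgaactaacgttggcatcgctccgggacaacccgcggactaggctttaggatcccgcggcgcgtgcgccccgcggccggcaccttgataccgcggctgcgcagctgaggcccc
Prpf8, chr11:75486527-75486776, plus strand: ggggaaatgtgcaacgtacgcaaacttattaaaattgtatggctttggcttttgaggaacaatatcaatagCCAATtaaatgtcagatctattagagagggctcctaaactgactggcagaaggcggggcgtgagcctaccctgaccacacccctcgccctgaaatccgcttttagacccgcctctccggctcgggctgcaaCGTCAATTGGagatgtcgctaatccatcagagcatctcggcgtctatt
Lsm7, chr10:80855210-80855459, minus strand: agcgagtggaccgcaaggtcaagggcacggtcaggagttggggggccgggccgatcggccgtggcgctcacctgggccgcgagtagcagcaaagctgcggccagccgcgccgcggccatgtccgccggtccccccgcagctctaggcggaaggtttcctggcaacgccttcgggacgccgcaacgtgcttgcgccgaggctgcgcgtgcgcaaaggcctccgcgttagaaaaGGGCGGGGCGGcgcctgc

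No word was present in all 5 windows of the genes that rose. The GC box was found before Snrpa1 and Lsm7, the CCAAT box before Sf3b3 and Prpf8, the ETS core and the TATA box before Sf3b3 and the CRE core before Prpf8. The window of Prpf3 held none of the 6 words, and that of Snrpb2 held 2 ETS cores and 1 GC box. Over the 51 members with a promoter in the table, 60.8% held a GC box and 47.1% an ETS core, against 32.7% and 12.0% of all 32851 promoters of this length. Each member entered with a single start, the nearest to its GENCODE start. The set of all promoters held every listed start and was not limited to expressed genes, so the sets are not alike. The CCAAT box was found in 37.3% of members and 33.9% of all promoters, the CRE core in 27.5% and 17.8%, the TATA box in 7.84% and 12.4%, and the E-box in 5.88% and 6.02%. The median GC content was 58.8% for members and 52.4% for all promoters. Such matches describe letters in these windows and show no binding.

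Genes of the Sm ring, the core shared by U1, U2, U4 and U5, did not pass the test in either direction (0 of 8, and 0 at an unadjusted p under 0.05). DESeq2 and limma-voom also called none of them. Of the 8 differences 7 were positive and 1 negative, with a median log2 fold change of 0.11 that fell to 0.05 without CNP-Cdk7cKO 4. Snrpd3 stood, in CPM, at 37.6, 38.1, 39.0 and 43.5 in Ctrl 1 to 4 and at 42.2, 40.9, 43.6 and 48.7 in CNP-Cdk7cKO 1 to 4 (log2 fold change 0.15 ± 0.07, edgeR adjusted p = 0.201). Snrpg had the largest difference in the ring, 0.21 ± 0.10 (edgeR adjusted p = 0.214). Snrpn, the imprinted paralogue of Snrpb best known from neurons, was the negative one, with CPM values of 28.6, 27.3, 27.3 and 27.3 in Ctrl 1 to 4 and 23.6, 26.0, 25.9 and 26.6 in CNP-Cdk7cKO 1 to 4. These groups did not overlap, but the difference did not pass (-0.11 ± 0.05, edgeR unadjusted p = 0.0622, adjusted p = 0.217). Snrpb itself measured 106 to 113 and 107 to 125 CPM. Snrpn also shares 216 exon bases with Snurf on the same strand, and its estimates were not whole in 7 libraries. Per kb of merged exons the Ctrl levels of the ring ran from 11.5 CPM per kb in Snrpd3 to 55.7 in Snrpb.

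Of 5 genes of U1 proteins and U1-associated factors 0 were called by edgeR or DESeq2, while 2 had an unadjusted p under 0.05 by edgeR. Snrpa, which encodes the A protein of U1, stood, in CPM, at 63.1, 64.1, 62.0 and 67.8 in Ctrl 1 to 4 and at 73.2, 68.2, 71.4 and 72.7 in CNP-Cdk7cKO 1 to 4. All knockout libraries were above all controls, by a narrow margin (log2 fold change 0.15 ± 0.05, edgeR adjusted p = 0.0592), and limma-voom called it higher, as did edgeR without Ctrl 4. Snrpc, which encodes the C protein of U1, measured 41.9 to 47.0 and 42.6 to 53.2 CPM. Prpf39 (35.3 to 43.4 against 29.1 to 37.8 CPM) and Prpf40b, both linked to the U1 snRNP, had overlapping groups. Prpf39 was the other gene at an unadjusted p under 0.05 and lay in the opposite direction to Snrpa (log2 fold change -0.20 ± 0.09, edgeR adjusted p = 0.18).

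SR protein genes, among them the most abundant members, had mostly negative differences, but 0 of 11 were called by edgeR, with 2 at an unadjusted p under 0.05. DESeq2 called 1 of them, Srsf5, lower (adjusted p = 0.0485). The differences were negative in 9 and positive in 2, with a median of -0.09 that moved to -0.03, with 7 negative and 4 positive, once CNP-Cdk7cKO 4 was left out. Srsf5 stood, in CPM, at 364, 378, 345 and 370 in Ctrl 1 to 4 and at 343, 338, 340.1 and 318 in CNP-Cdk7cKO 1 to 4. All knockout libraries were below all controls, though CNP-Cdk7cKO 1 and Ctrl 3 almost met (log2 fold change -0.12 ± 0.04, edgeR adjusted p = 0.0992). Srsf9 lay the other way, at 39.7 to 40.9 against 41.9 to 46.3 CPM (0.12 ± 0.05, edgeR adjusted p = 0.141). Srsf1, the founding SR protein gene, measured 179 to 191 in Ctrl and 150 to 188 CPM in CNP-Cdk7cKO, Srsf2 227 to 237 and 186 to 229 CPM, Srsf3 167 to 183 and 153 to 180.4 CPM, and Srsf6 257 to 289 and 239 to 268 CPM. Each of these ranges overlapped. Srsf4 and Srsf7 differed by 0.04 and by less than 0.01, and Srsf12, the least abundant SR gene at 1.13 to 2.19 CPM, by -0.27 ± 0.23. Per kb of merged exons Srsf5 (91.4 CPM per kb), Srsf2 (78.0) and Srsf6 (57.4) had the highest Ctrl levels of all members.

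**Figure D3:**
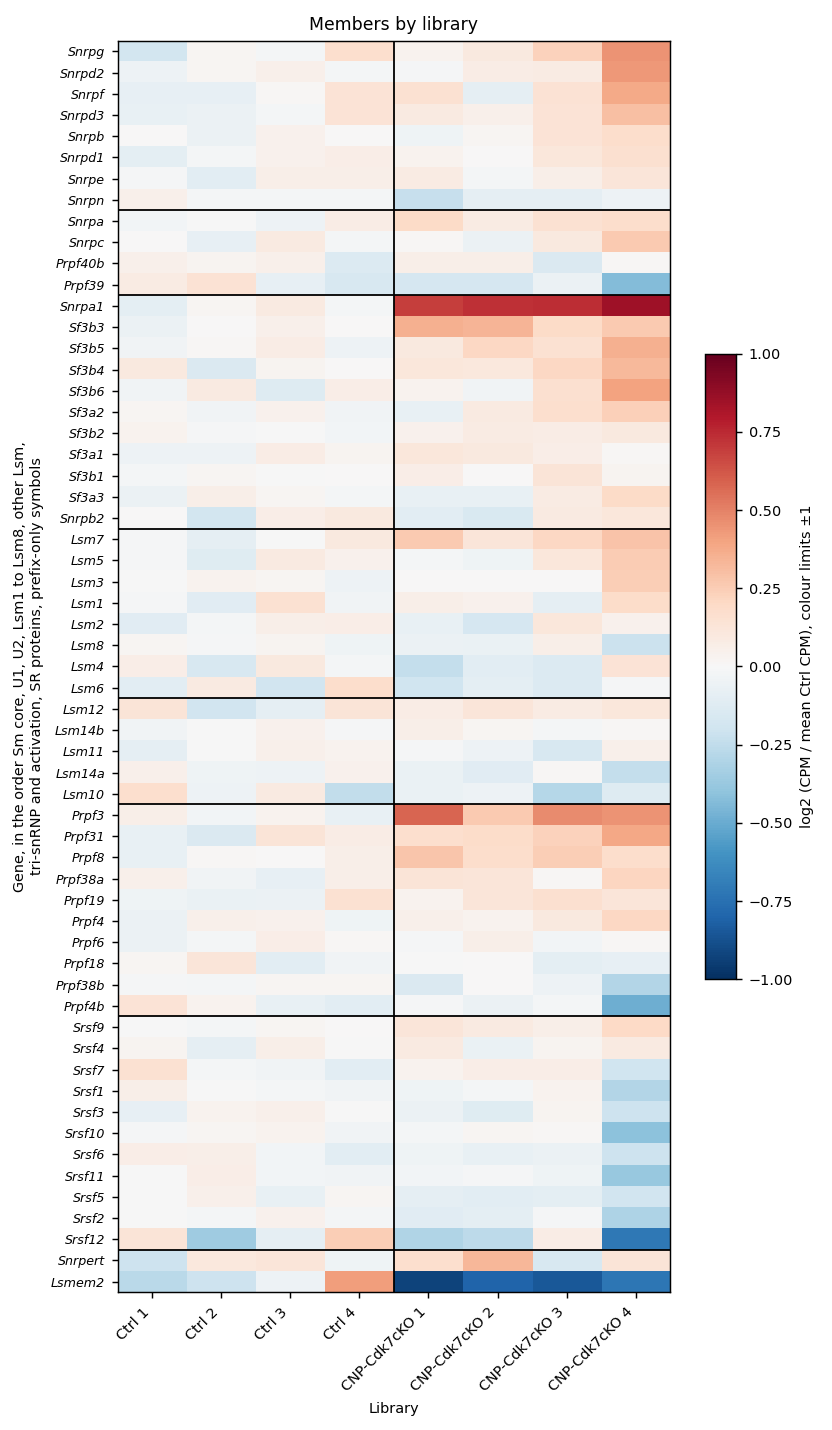
Log2 ratio of each library's CPM to the mean of the Ctrl libraries (colour, limits ±1) for 59 of the 60 tested members (rows, grouped by subcomplex) in the 8 libraries (columns). Snrpa1 and Prpf3 are raised in each knockout library, and CNP-Cdk7cKO 4 stands apart with lower SR genes and higher Sm genes.

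CNP-Cdk7cKO 4 differed from the other knockout libraries in opposite directions in these groups. It was the lowest of the 8 libraries for 9 of the 11 SR genes and the highest for 7 of the 8 Sm genes and 8 of the 11 U2 genes. Against the mean of the other knockout libraries its log2 difference had a median of -0.24 over SR genes, 0.17 over Sm genes and 0.17 over U2 genes. In the other 7 libraries the SR median lay between -0.03 and 0.10. Over all genes, this library was shifted by 0.08 in the tercile with the shortest merged exons (up to 3129 bases) and by -0.07 in the tercile with the longest (from 5676 bases). The median log2 fold change between the groups ran the same way, at 0.05 in the short and -0.04 in the long tercile. The median merged exon length was 2014 bases for the Sm genes and 3988 bases for the SR genes. Of the 8 Sm genes 7 were in the short tercile and 1 in the middle one. Of the 11 SR genes 2 were in the short, 5 in the middle and 4 in the long tercile. Against the other knockout libraries, this library's log2 differences ran from -0.41 (Srsf10) to -0.16 (Srsf3) in the long SR genes. In the middle ones they ran from -0.56 (Srsf12) to 0.07 (Srsf4), and the short ones stood at -0.24 (Srsf2) and 0.11 (Srsf9). The part of transcript length or RNA quality in the shift of SR genes was not tested. The calls of Snrpa1, Prpf3, Sf3b3 and Prpf8 held without this library, and that of Lsm7 did not (edgeR adjusted p = 0.0818).

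**Figure D4:**
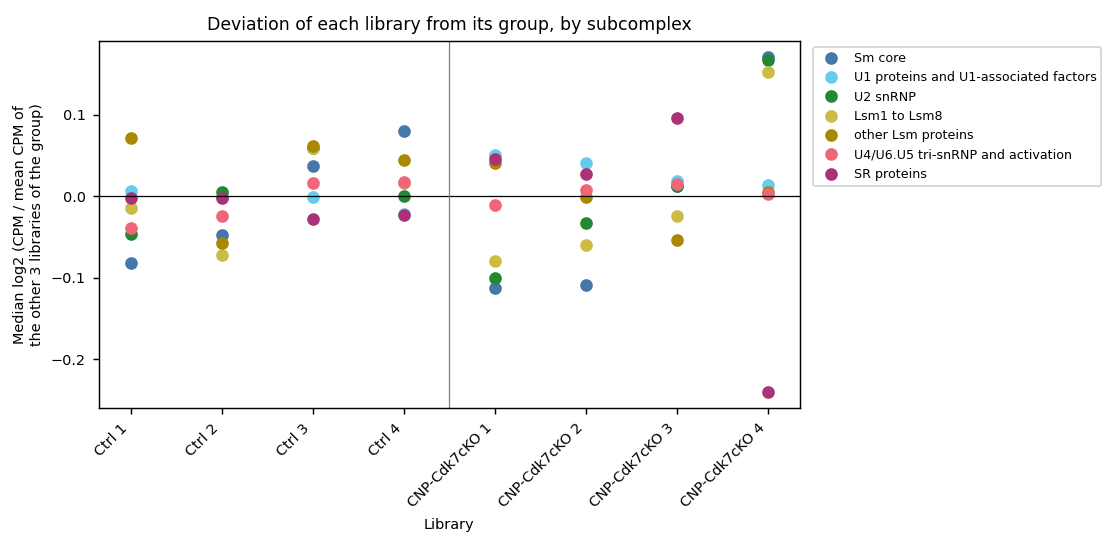
Median over the members of each subcomplex of the log2 ratio of a library's CPM to the mean of the other 3 libraries of its group (y axis), by library (x axis). In CNP-Cdk7cKO 4 the SR genes stand at -0.24 and the Sm genes at 0.17, wider apart than in any other library.

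Of the remaining Lsm genes 0 of 5 were called by edgeR, DESeq2 or limma-voom, and 0 had an unadjusted p under 0.05 by edgeR. Lsm10 and Lsm11, the Lsm proteins of the U7 snRNP that trims histone mRNAs, measured 7.90 to 10.5 against 7.68 to 9.04 CPM and 7.35 to 8.12 against 6.98 to 8.10 CPM. Lsm14a, an mRNP granule protein gene, stood, in CPM, at 127, 119, 118 and 126 in Ctrl 1 to 4 and at 117, 113, 123 and 103 in CNP-Cdk7cKO 1 to 4 (log2 fold change -0.10 ± 0.06, edgeR adjusted p = 0.314). Lsm12 and Lsm14b overlapped between groups.

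The 1 member called lower is not a splicing gene, and its row is annotated as a long noncoding RNA with 369 merged exon bases. Lsmem2 stood, in CPM, at 3.43, 3.57, 3.99 and 5.51 in Ctrl 1 to 4 and at 2.17, 2.37, 2.29 and 2.50 in CNP-Cdk7cKO 1 to 4 (log2 fold change -0.82 ± 0.18, edgeR adjusted p = 0.0144). All knockout libraries were below all controls, and Ctrl 4 was the highest. Ctrl 4 also had the most muscle transcripts (0.594% of counts, against 0.0602% to 0.198% in the other controls and 0.0124% to 0.0682% in the knockout libraries). With the muscle markers as a covariate the difference was -0.32 and with Xist -0.54, and neither passed (edgeR adjusted p = 0.663 and 0.397). Lsmem1 was too low to be tested, at 0.18 to 1.07 CPM in Ctrl, the highest again in Ctrl 4, and 0 to 0.10 CPM in CNP-Cdk7cKO. Snrpert measured 1.84 to 2.30 and 1.90 to 2.66 CPM and was not called.

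With Xist as a covariate, 1 member, Snrpa1, was called higher and 0 lower, with 8 and 0 at an unadjusted p under 0.05. Over all genes that fit called 0.498% higher and 1.08% lower, far fewer than without the covariate. The median standard error of the tested members was 0.107 in that fit and 0.117 with the muscle markers, against 0.064 without a covariate. Both fits were thus less precise, and what the lost calls owe to sex or muscle was not tested. The muscle marker covariate and the female libraries alone likewise left Snrpa1 as the single member called, and the 4 other rises kept a positive log2 fold change in each of the 3 fits.

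Other proteins of the same particles were read from lists written from general knowledge. Of 32 further snRNP proteins 3 rose and 1 fell (median log2 fold change 0.04), where 5.07% and 6.60% of all tested genes did. The 3 rises were all in genes of the U5 snRNP, the particle of Prpf8, a grouping made after the values were seen. Snrnp200, the helicase that unwinds U4 from U6, stood, in CPM, at 61.8, 61.3, 65.3 and 59.4 in Ctrl 1 to 4 and at 72.7, 79.5, 77.5 and 77.3 in CNP-Cdk7cKO 1 to 4 (log2 fold change 0.31 ± 0.05, edgeR adjusted p = 0.00249). Eftud2, the U5 GTPase, measured 75.6 to 79.6 CPM and 90.3 to 94.1 CPM (0.25 ± 0.04, edgeR adjusted p = 0.00273), and the small U5 protein gene Txnl4a 20.6 to 24.3 and 25.0 to 30.0 CPM (0.31 ± 0.07, edgeR adjusted p = 0.021). The call of Txnl4a was lost without Ctrl 1, 3 or 4 and without CNP-Cdk7cKO 1 or 2. In all 3 the groups did not overlap. Of the other U5 proteins, Prpf6 above, Snrnp40 (29.1 and 32.2 CPM) and Ddx23 (73.6 and 81.1 CPM; both named after their values were seen) were not called. With Xist as a covariate Snrnp200, Eftud2 and Txnl4a were not called either. Snrnp70, the U1 70K protein gene, fell from 481 ± 7.36 to 440 ± 7.35 CPM (-0.13 ± 0.03, edgeR adjusted p = 0.0358), a call lost in 12 of 18 alternatives, among them each left-out library except CNP-Cdk7cKO 4.

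Among partners of the SR proteins and the snRNP cycle few genes were called in each list. Over all tested genes 5.07% were called higher and 6.60% lower, and the lists are too short for a close comparison with these shares. Of 24 tested SR-related proteins and SR kinases 1 fell and 0 rose: Srpk3, an SR protein kinase gene best known from muscle, stood, in CPM, at 36.0, 34.4, 38.6 and 38.2 in Ctrl 1 to 4 and at 21.8, 22.9, 23.9 and 25.8 in CNP-Cdk7cKO 1 to 4 (log2 fold change -0.64 ± 0.06, edgeR adjusted p = 0.000203). Srpk3 lies on the X chromosome. Its log2 fold change was -0.61 with Xist as a covariate and -0.62 with the muscle markers (edgeR adjusted p = 0.0204 and 0.0285). The call was lost only among female libraries alone, where the log2 fold change was -0.61. Beyond these fits, the part of sex or muscle tissue in the fall of Srpk3 was not tested. Of 20 splice site recognition factors 1 fell, Qk, the RNA-binding protein quaking of myelinating glia, from 826 ± 28.2 to 618 ± 106 CPM (-0.42 ± 0.10, edgeR adjusted p = 0.0255), with CNP-Cdk7cKO 4 lowest at 461 CPM; this call was lost without Ctrl 1, 2 or 3 or CNP-Cdk7cKO 1. Of 23 hnRNP genes, whose proteins often oppose SR proteins, 2 fell and 0 rose: Hnrnpdl (-0.21 ± 0.04) and Hnrnpa1 (-0.26 ± 0.07), the latter not without Ctrl 2, 3 or 4 or CNP-Cdk7cKO 1 or 2. DESeq2 and limma-voom also called Hnrnph1 lower. In the exon junction complex, which splicing leaves on mRNA, 3 of 13 rose and 0 fell: Sap18 (0.27 ± 0.04), the helicase gene Eif4a3 (0.23 ± 0.05) and Rnps1 (0.19 ± 0.04), with adjusted p-values of 0.00266, 0.0164 and 0.0194 by edgeR. Without Ctrl 2, Eif4a3 and Rnps1 were not called, and none of these 7 genes but Srpk3 was called with Xist as a covariate.

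By edgeR, 0 genes were called among 33 factors of activation and catalysis, 17 genes of the SMN complex and Sm core assembly, 10 decapping partners of the Lsm1 to Lsm7 ring or 5 tested genes of histone mRNA processing, with 6, 3, 1 and 1 at an unadjusted p under 0.05. DESeq2 and limma-voom also called 0 in these lists except for Prmt5 in the second. In the first of these lists Ik and Wbp11 had means of 92.8 and 90.7 CPM over Ctrl and 97.3 and 94.0 CPM over CNP-Cdk7cKO. In the assembly list Strap measured 88.4 and 93.6 CPM, and Prmt5, which methylates Sm proteins, 56.7 and 64.3 CPM (log2 fold change 0.18 ± 0.05, edgeR adjusted p = 0.0501). Prmt5 was called higher in 5 of 18 alternatives, namely DESeq2 (adjusted p = 0.0377), limma-voom (0.0277), the replicate block, the filter at 1 CPM and the fit without Ctrl 1 (edgeR adjusted p = 0.0231). Among the decapping partners Ddx6 measured 136 and 127 CPM and Edc4 66.8 and 72.7 CPM, and for histone processing Sympk 129 and 136 CPM and Cpsf3 49.7 and 51.6 CPM.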

How the data were processed

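The authors deposited 1 table of estimated counts, with genes as rows and the 8 libraries as columns. STAR and Salmon made it on GRCm38, per the submitters' processing notes. The sources used here give neither their versions and settings nor the use of strand and the gene annotation. Libraries were stranded mRNA preparations, per the labels. Counts were rounded (3.88% of values differed from a whole number by over 0.01), and 55141 of 55487 Ensembl identifiers matched a symbol. Genes passing filterByExpr (minimum count 10, total 15) were scaled by TMM (trimmed mean of M values) and compared with edgeR 4.0.16 (quasi-likelihood F test, R 4.3.3). Standard errors were the log2 fold change over the root of F. Alternatives were DESeq2 1.42.0, limma-voom (3.58.1), other size factors and filters, a replicate block, Xist or muscle markers as a covariate, each library left out and, chosen after the data were seen, female libraries alone. Lengths and positions are from GENCODE M21 (GRCm38), with exons of a gene merged.

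Each called member, the member with the smallest p of a subcomplex without calls, and Snrpa1 are given in every library; from each other list, up to 4 called genes or the 2 most abundant are named. The values of 1 member, which is kept in the counts, are not reported here. Members and lists were chosen with earlier results of these data known. In a simulated comparison of these groups over 15056 genes, changes of 1.25-fold were recovered in 18% of 50 genes and changes of 1.5-fold in 64% of 50, beside 6 false calls. Changes of 2-fold and 3-fold were recovered in 76% and 84% of 50 genes each. The changed genes were drawn at random from all tested genes, whose median standard error was 0.089, against 0.064 in the members. The recovered shares may therefore not hold for the members. Replicates of a group differed by more than counting noise (chi-square per degree of freedom 3.86 to 17.6).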

Additional observations from a re-analysis of the deposited data

Results flagged for a closer look

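Each group of 4 libraries was searched for a library whose gap to its nearest neighbour took more of the group's range than Dixon's critical value allows, a limit that chance passes in about 1 in 20 groups. Of 118 groups from 59 tested members 8 passed it, and 5 of these were in CNP-Cdk7cKO 4. That library was low for Srsf10 (47.2 CPM, others 61.7 to 63.4), Srsf11 (91.0 CPM, others 115 to 118), Srsf7 (71.0 CPM, others 83.6 to 85.6) and Prpf4b (40.1 CPM, others 53.8 to 55.7), and high for Lsm3 (25.5 CPM, others 21.5 to 21.6). Ctrl 4 was high for Prpf19 (133 CPM, others 114 to 116) and low for Prpf40b (50.7 CPM, others 56.6 to 57.8). Ctrl 1 was high for Snrpn (28.6 CPM, others 27.3). None of these 8 genes was called in the comparison of all libraries.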

How the results depend on the processing

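Snrpa1 and Cdk7 kept their direction and call in all 18 alternatives, with log2 fold changes of 0.72 to 0.85 and -1.01 to -0.81. Over all genes, 763 were called higher and 994 lower; with Xist as a covariate 75 and 163 were, with the muscle markers 92 and 143, in the female libraries alone (chosen after the data were seen) 37 and 77, and with 1 library left out 470 to 655 and 653 to 860, lowest without Ctrl 2. Of the members, 5 higher and 1 lower became 1 and 0 with Xist, with the muscle markers and in the female libraries (unadjusted p under 0.05 in the lower direction: 0, 2 and 0), and the calls of Prpf3, Sf3b3 and Prpf8 were lost in these 3 fits alone. In the muscle and female fits their adjusted p-values were 0.298 and 0.299 for Prpf3, 0.0544 and 0.167 for Sf3b3, and 0.12 and 0.172 for Prpf8. Without a count filter 2 members were lower (Lsmem1 and Lsmem2), by DESeq2 2 (Lsmem2 and Srsf5), and without the symbols that match by prefix alone 0. With 1 library left out 4 to 7 members were higher and 1 lower. Snrpb2 changed sign, between -0.069 and 0.034, as libraries were left out, and Cpsf3 with Xist (-0.087), with the muscle markers (-0.0021) and in the female libraries (-0.0898), never called. The cause of these changes was not tested. With the replicate block 6 members were higher and 1 lower, and over all genes 682 and 926. The replicate numbers were not shown to pair the libraries: deviations of same-numbered libraries correlated at 0.05, 0.13, 0.18 and 0.02, and numbers 1 and 4 correlated better with another number. With 4 libraries a group, small changes could be missed. The simulation recovered 18% of 1.25-fold changes, in genes drawn from all tested genes rather than from the members.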
